A study of Mus musculus with 23 samples.

Results

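The comparison concerns the brightest cells sorted from mouse brain after a dose of either of 2 brain-penetrating antibodies, the high fluorescence bin of ATV-TfR against the high fluorescence bin of ATV-CD98hc. Its members are the libraries titled TfR high and CD98hc high, pools 1 and 2 of each, which makes 4 of the 23 libraries in the series. Barcodes were kept with at least 500 detected genes, at least 800 UMIs (unique molecular identifiers, each counted as 1 captured RNA molecule) and at most 10% mitochondrial UMIs, and called doublets were removed. This left 57706 cells in the 4 libraries, of 234024 in the series, and 52579 of them were endothelial-like.

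An ATV, or antibody transport vehicle, is an antibody that binds a receptor of the brain capillary wall and can be carried across it. ATV-TfR was given to TfR mu/hu KI mice, which carry a mouse/human knock-in of the transferrin receptor. ATV-CD98hc was given to CD98hc mu/hu KI mice, which carry such a knock-in of the CD98 heavy chain. C57BL/6J mice without a knock-in received a control IgG, and both knock-ins were on a C57Bl6J background. All 3 antibodies carried the Fc change named LALAPG in the labels, which lowers binding to Fc gamma receptors, and the dye AF647. The intravenous dose was 45 mg/kg, and brains were taken 24 h later from mice aged 12 weeks by the series' design and 3.3 months by the sample labels, leaving out the cerebellum, pons, medulla and olfactory bulb. Each library pools a male with a female mouse, 2 animals in all, and the 4 bins of a pool share them. The gates were set on ATV-TfR mice, whose AF647-positive cells were split into tertiles, and were then used for every mouse. About 30% of live cells were AF647-positive with ATV-TfR and about 20% with ATV-CD98hc, so the high bin is a fixed brightness and not a fixed share of cells. Genotype and antibody coincide in every library: what the knock-in allele does and what the antibody does cannot be told apart.

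The transferrin receptor (gene Tfrc) takes up iron-loaded transferrin by endocytosis and recycles to the cell surface, and brain capillaries are known for their high level of it. CD98hc (gene Slc3a2) is the heavy chain that brings amino acid carriers such as LAT1 (gene Slc7a5) to the plasma membrane of endothelial and many other cells. Brain endothelium is graded along the vessel from arterial to capillary to venous cells, and a fenestrated, Plvap-positive type lines the vessels of regions that lack a barrier.

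The 4 libraries held 51537437 to 81663022 UMIs and 9864 to 18532 kept cells. Endothelial-like cells made up 89.6% and 92.3% of the ATV-TfR high libraries and 90.9% and 91.8% of the ATV-CD98hc high libraries. Their median UMI number per cell lay between 3165 and 3922. All 12 endothelial markers were detected in these cells. Any pair of the 4 libraries shared 30 to 78 cell barcodes, at most 0.616% of a library. ATV-CD98hc pool 1 stood apart from pool 2. Over genes at 20 CPM or more (a gene's UMIs scaled to the same total for each cell class and library), the SD of the log2 ratio between the pools was 0.399 for ATV-CD98hc high and 0.113 for ATV-TfR high. Between the ATV-CD98hc pools 36 such genes were over 2-fold higher and 3 over 2-fold lower in pool 1, against none between the ATV-TfR pools. The results below are therefore given with and without that pool where it changes them.

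Between the high bins, few endothelial genes differed, and the most abundant of them were the genes of the receptors themselves. In a fit of 16 ATV libraries with edgeR's quasi-likelihood test, 30 of 14153 genes tested were called at a Benjamini-Hochberg adjusted p below 0.05 (0.212%), 23 higher (0.163%) and 7 lower (0.0495%) in ATV-TfR, and 546 had an unadjusted p below 0.05 (3.86%). Of these 30, 3 had a mean of at least 20 CPM: Slc3a2 was higher in ATV-TfR, and Tfrc and Wdfy1 were lower. The median difference over all genes tested was -0.04 on the log2 scale. Leaving out either ATV-TfR pool ended the calls with edgeR. Every bin of that arm then has a single library, so the spread is estimated from the other antibody's pools. The SD of the log2 ratio between the pools was 0.399 for ATV-CD98hc high and 0.113 for ATV-TfR high. The number of calls with a pool left out therefore cannot show which pools the calls rest on. Without ATV-CD98hc pool 1 the count was 188, and without pool 2, which leaves pool 1 alone in that arm, it was 5138. Each of these fits takes the lone library to vary as the other groups do.

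**Figure D1:**
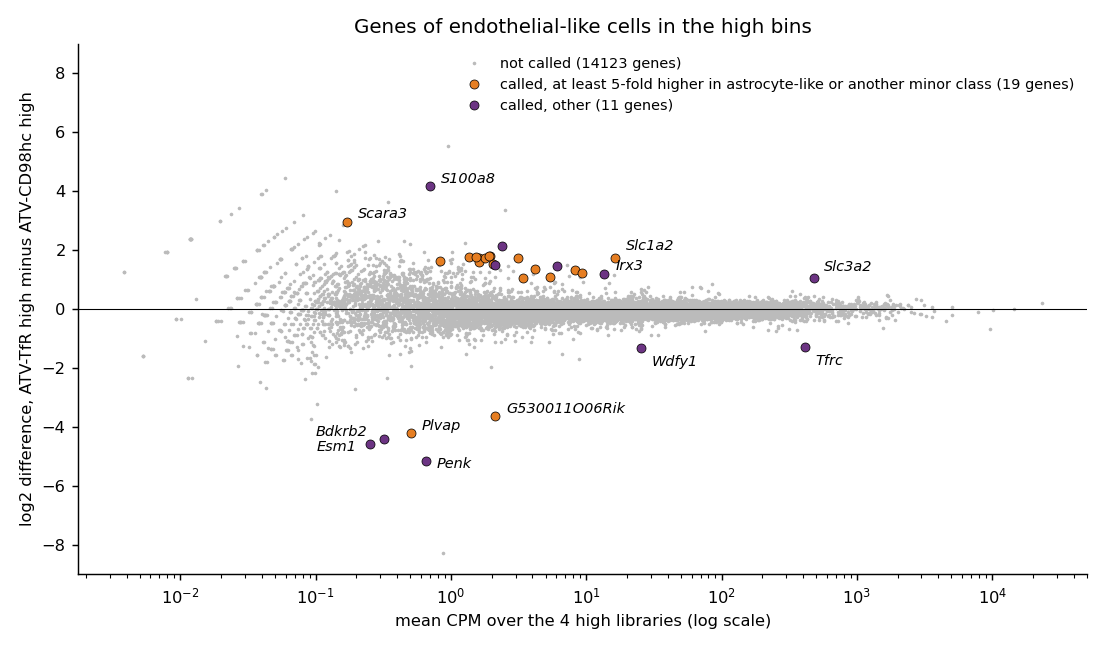
Mean level (x, CPM on a log scale) against the log2 difference between ATV-TfR high and ATV-CD98hc high (y) for the 14153 genes tested in endothelial-like cells. Grey points are genes not called, orange points are called genes at least 5-fold higher in a minor class, and purple points are the other called genes. Slc3a2 and Tfrc are the abundant genes away from 0, and most other called genes lie below 20 CPM.

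Tfrc (ENSMUSG00000022797) was lower in the endothelial-like cells sorted as bright for the antibody against its own product. Its level was 229 and 251.5 CPM in the ATV-TfR high libraries and 671 and 496 CPM in the ATV-CD98hc high libraries. The ATV-TfR values were both below the ATV-CD98hc values, with no overlap. The log2 difference, ATV-TfR minus ATV-CD98hc, was -1.29 (SE 0.20, 95% interval -1.71 to -0.87, adjusted p = 0.00848, edgeR). It was -1.08 without ATV-CD98hc pool 1 and -1.48 without pool 2. Leaving out either ATV-TfR pool ended the call, with -1.15 without pool 1 and -1.37 without pool 2, and so did a fit of the 4 high libraries alone (-1.25, adjusted p = 0.376). The gap was present in both sexes: by sex-specific genes, female cells held 255 and 260 CPM with ATV-TfR against 734 and 562 with ATV-CD98hc, and male cells 208 and 254 against 599 and 439.

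Slc3a2 (ENSMUSG00000010095) showed the opposite order. It stood at 633 and 664 CPM with ATV-TfR and at 253 and 362 CPM with ATV-CD98hc, again without overlap. The difference was 1.05 (SE 0.19, 95% interval 0.65 to 1.45, adjusted p = 0.0252, edgeR). It was 0.81 without ATV-CD98hc pool 1 and 1.36 without pool 2, and the call ended without either ATV-TfR pool (1.15 and 1.01), with the 4 high libraries alone (1.09, adjusted p = 0.746), in female cells (1.11, adjusted p = 0.0539) and in capillary cells (1.08, adjusted p = 0.0928). Each receptor gene was thus the lower one in the mice that carried its knock-in and received its antibody. The counts were made against a mouse genome, and how far reads of the humanised alleles were counted was not tested.

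Control IgG mice give a level without a knock-in or an ATV, but from other bins. Their medium and high libraries held 10 to 42 endothelial-like cells each and are left aside for these genes. Venous cells made up 9.85% of the control IgG negative and 42.3% and 32.0% of the control IgG low endothelial-like cells. In the ATV high libraries they made up 14.1% to 15.5%. The part of bin and zone in the comparison below was not tested. Tfrc stood at 520 CPM in the negative library and at 506 and 618 CPM in the low libraries of control IgG. Of the ATV-CD98hc high values 1 lay above and 1 below that range, and both ATV-TfR high values lay far below it. Slc3a2 stood at 467 CPM in the negative and at 603 and 530 CPM in the low libraries of control IgG, above both ATV-CD98hc high values and below both ATV-TfR high values.

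Within each antibody the endothelial level of both genes differed from bin to bin. With ATV-TfR, Tfrc was 53.9 and 56.0 CPM in the negative bin, 31.25 and 53.5 in the low bin and 105 and 128 in the medium bin, all below the high bin. With ATV-CD98hc it was 163 and 166, 275 and 284, and 596 and 450 CPM in the same bins. Both ATV-TfR values of Tfrc lay below both ATV-CD98hc values in each bin, with no test within the 3 lower bins. The vessel zones moved with the bins as well: arterial cells made up 63.6% and 57.7% of the low endothelial-like cells with ATV-TfR against 30.4% and 29.01% with ATV-CD98hc, and fenestrated cells 36.5% and 31.8% against 9.64% and 13.8% of the negative ones. The part of these zones in the bin levels was not tested. Slc3a2 with ATV-TfR was 288 and 302 CPM in the negative, 239 and 226 in the low and 444 and 456 in the medium bin. With ATV-CD98hc it was 73.55 and 132, 201 and 188, and 237 and 249 CPM. The negative bins rest on 58 to 126 endothelial-like cells per library. Whether the difference between the antibodies itself changed with the bin was tested: for Tfrc the high minus medium difference was 0.93 (adjusted p = 0.206, edgeR) and for Slc3a2 0.21 (adjusted p = 1), neither called.

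**Figure D2:**
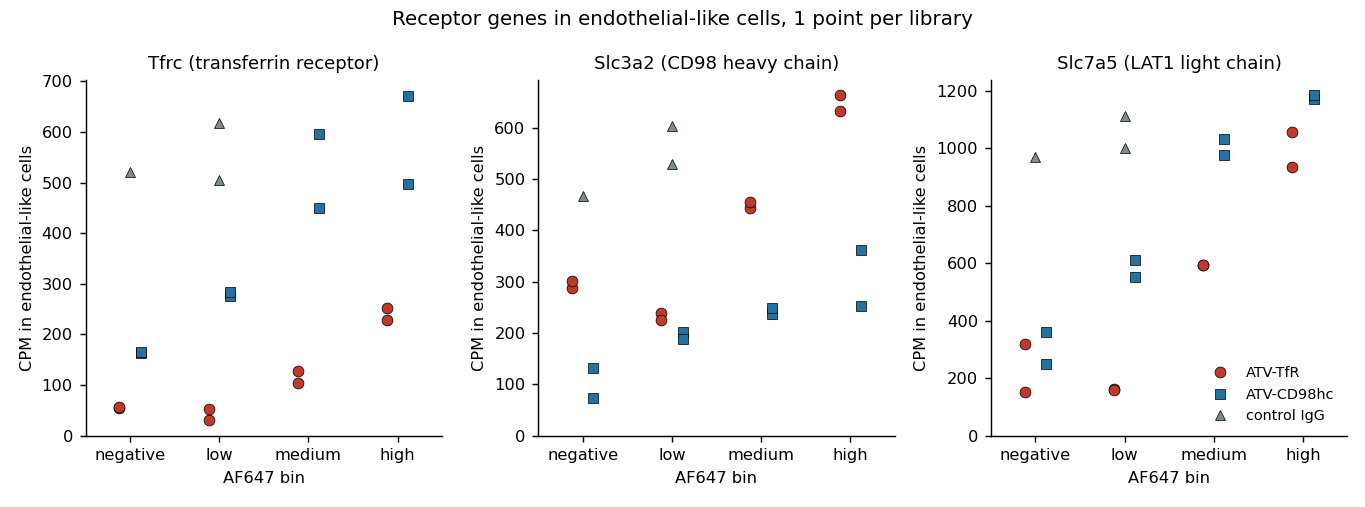
Level (y, CPM in endothelial-like cells) of Tfrc, Slc3a2 and Slc7a5 by AF647 bin (x), 1 point per library with at least 50 endothelial-like cells. Circles are ATV-TfR, squares ATV-CD98hc and triangles control IgG. In the high bin Tfrc is lower and Slc3a2 higher with ATV-TfR, and Slc7a5 lies at 934 to 1186 CPM with either antibody.

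The receptor genes were also read by vessel zone, where neither gene's values overlapped between the antibodies. In capillary-zone cells Tfrc was 240 and 263 CPM with ATV-TfR and 707 and 518 with ATV-CD98hc. In arterial-zone cells it was 133 and 146 against 408 and 320 CPM, and in venous-zone cells 248 and 274 against 692.5 and 522 CPM. Arterial cells held the lowest Tfrc level of the 3 zones in each of the 4 libraries. Slc3a2 was 659 and 685 CPM in capillary cells with ATV-TfR against 258 and 373 with ATV-CD98hc, and 477 and 506 against 234 and 306 CPM in arterial cells. Among capillary cells alone Tfrc was called (-1.28, adjusted p = 0.0469, edgeR) and Slc3a2 was not (1.08, adjusted p = 0.0928), and arterial and venous cells were not tested.

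Tfrc messenger RNA carries iron-responsive elements in its 3' untranslated region, hairpins whose binding by iron regulatory proteins stabilises the message when iron is low, while single elements in the 5' untranslated region of ferritin and ferroportin messages restrain translation. The elements are shown because Tfrc is the member of the iron genes that edgeR called. They were located as a C, 5 bases, and a loop of CAGTG and any base, with the 5 bases paired to the 5 that follow the loop (G-T pairs allowed), on the transcribed strand, in GENCODE transcripts of build GRCm38, the build named in the submitters' processing notes. Capitals mark the 6-base loop.
Tfrc site 1, chr16:32631219-32631247, + strand: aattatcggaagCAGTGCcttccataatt
Tfrc site 2, chr16:32631598-32631626, + strand: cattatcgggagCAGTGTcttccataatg
Tfrc site 3, chr16:32631663-32631691, + strand: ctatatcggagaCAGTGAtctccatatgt
Tfrc site 4, chr16:32631710-32631738, + strand: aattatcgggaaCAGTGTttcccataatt
Slc40a1, 5' untranslated region, chr1:45925465-45925493, - strand: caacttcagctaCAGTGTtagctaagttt
Fth1, 5' untranslated region, chr19:9982732-9982760, + strand: ttcctgcttcaaCAGTGCttgaacggaac
Ftl1, 5' untranslated region, chr7:45459779-45459807, - strand: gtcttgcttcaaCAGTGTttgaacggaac
The pattern matched an untranslated region of 155 of 21875 protein-coding genes (0.709%), and a match is a description of the letters only.

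Of the other iron genes edgeR called none. Slc40a1, the iron exporter ferroportin, stood at 305 and 311 CPM with ATV-TfR and 391 and 375 CPM with ATV-CD98hc, without overlap, and its difference of -0.33 (95% interval -0.62 to -0.04) was not called (adjusted p = 1.0, edgeR). Fth1, the ferritin heavy chain, was 1960 and 1984 against 1506 and 1953 CPM, and Ftl1, its light chain, 1208 and 1161 against 842.5 and 1201 CPM. In both ferritin genes the low value was that of ATV-CD98hc pool 1. Slc11a2, the divalent metal carrier of endosomes, was 14.25 and 13.4 against 14.6 and 14.8 CPM. Bmp6, a growth factor through which endothelium signals iron load in the liver, had low values of 0.401 and 0.569 against 1.34 and 1.05 CPM, without overlap. Its difference was of the size of that of Tfrc (-1.29, adjusted p = 0.198, edgeR) and was called with DESeq2 (adjusted p = 0.00573). Bmp6 was highest in the ATV-TfR negative libraries, at 113 and 96.1 CPM, where fenestrated cells made up 36.5% and 31.8%. The part of fenestrated cells in its high-bin values was not tested. Of 15 tested genes of transferrin receptor and iron import, Tfrc was called (lower) and 2 had an unadjusted p below 0.05, with a median log2 difference of -0.09. Of 12 tested genes of iron export and storage edgeR called 0, limma voom 0 and DESeq2 1 (Bmp6), 2 had an unadjusted p below 0.05 with edgeR, and the median was 0.05.

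Among the partners of CD98hc no light chain was called. Slc7a5, the light chain LAT1, was 934 and 1056 CPM with ATV-TfR and 1172 and 1186 CPM with ATV-CD98hc. The difference was -0.26 (95% interval -0.73 to 0.21) and not called with edgeR. That of the heavy chain gene Slc3a2 was 1.05 (0.65 to 1.45), and these genes were not tested against each other. Of 7 genes of the heavy and light chains 1 was called, Slc3a2 itself, and their median was -0.01. Of 19 tested amino acid carriers that work without CD98, 29 genes of the amino acid and integrated stress response and 24 of mTORC1 and amino acid sensing, edgeR called 0, with 1, 1 and 0 genes at an unadjusted p below 0.05. Fcgrt, the neonatal Fc receptor that recycles antibodies, was 684 and 708 against 494 and 681 CPM, a difference of 0.22 (95% interval -0.18 to 0.63).

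The receptor genes were then followed in the other cell classes of the same libraries, which carry the same alleles. Slc3a2 was called as higher with ATV-TfR in 4 of the 5 classes that could be tested. In astrocyte-like cells it was 320 and 308 CPM with ATV-TfR and 112.5 and 146 with ATV-CD98hc (1.51, SE 0.15, adjusted p = 2.24e-06, edgeR). In border macrophage-like cells it was 355 and 330 against 111 and 153 CPM (1.40, SE 0.30, adjusted p = 0.00782), and in choroid plexus epithelial-like cells 177 and 159 against 59.8 and 80.0 CPM (1.43, SE 0.19, adjusted p = 0.00111). In pericyte-like cells it was 237 and 185 against 119 and 94.4 CPM, from 145 and 83 against 9 and 25 UMIs, and not called (1.08, adjusted p = 0.728). The groups did not overlap in any of these classes. In border macrophage-like cells the call was lost without either ATV-TfR pool or without ATV-CD98hc pool 1, and in choroid plexus epithelial-like cells without ATV-TfR pool 1. DESeq2 set no adjusted p for Slc3a2 in choroid plexus epithelial-like cells, where its unadjusted p was 6.63e-10.

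Tfrc did not follow that pattern. In astrocyte-like cells it was 70.9 and 58.9 CPM with ATV-TfR and 72.0 and 59.0 with ATV-CD98hc, with overlap (0.21, 95% interval -0.15 to 0.57). In choroid plexus epithelial-like cells it was 37.0 and 28.4 against 43.8 and 33.1 CPM (-0.07, 95% interval -0.67 to 0.54). In border macrophage-like cells the ATV-TfR values were the higher ones, 113 and 73.3 against 57.6 and 47.7 CPM (0.83, adjusted p = 0.253), and in pericyte-like cells the lower ones, 36.0 and 28.9 against 119 and 98.2 CPM (-1.64, adjusted p = 0.453). The pericyte-like values of Tfrc rested on 22 and 13 against 9 and 26 UMIs. None of the 4 differences was called with edgeR. The 95% intervals for endothelial-like and astrocyte-like cells do not overlap, but the difference between classes was not tested. Endothelial-like cells held a higher mean level of Tfrc (412 CPM) and of Slc3a2 (478 CPM) over the 4 libraries than any of the other classes, and the part of their RNA in the levels of those classes was not tested.

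**Figure D3:**
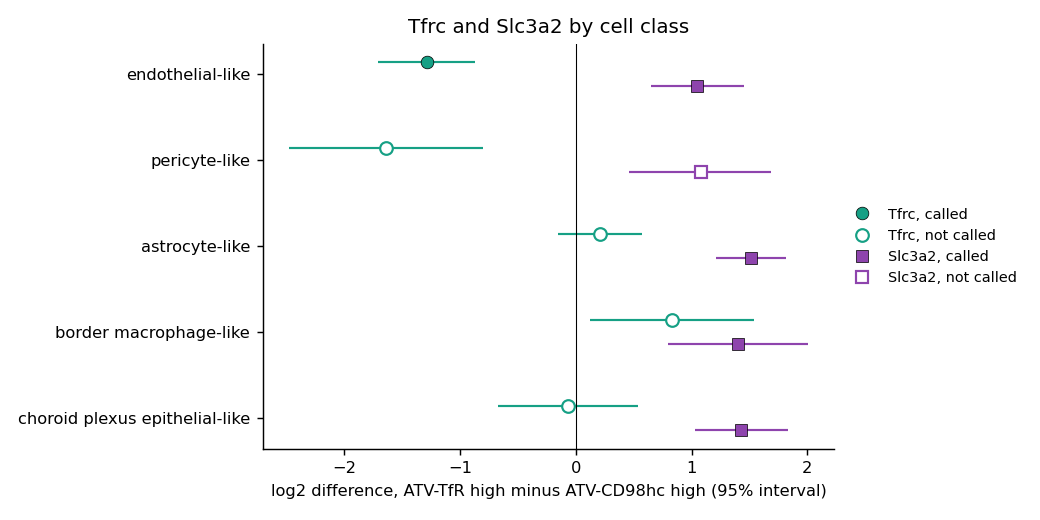
Log2 difference, ATV-TfR high minus ATV-CD98hc high, with its 95% interval (x) for Tfrc (circles) and Slc3a2 (squares) in 5 cell classes (y). Filled symbols are called at an adjusted p below 0.05. Slc3a2 lies above 0 in every class, and Tfrc lies below 0 in endothelial- and pericyte-like cells and near or above it in the others.

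Outside the receptors, Wdfy1 and Irx3 were the called genes above 10 CPM that were not more abundant in another class by 5-fold or more. Wdfy1, a protein of early endosomes that binds their membrane lipid, was 16.1 and 13.6 CPM with ATV-TfR and 27.1 and 44.9 with ATV-CD98hc (-1.31, SE 0.26, adjusted p = 0.0458, edgeR). Its values did not overlap between the groups in astrocyte-, choroid plexus epithelial- and pericyte-like cells either, lower with ATV-TfR in each, with no call there (adjusted p = 0.0677, 0.252 and 1). In border macrophage-like cells the values overlapped, 15.3 and 33.0 against 36.9 and 27.3 CPM. Irx3, a homeobox transcription factor that falls outside the rule for named genes and was singled out after its values were seen, was 19.9 and 18.1 against 8.26 and 8.17 CPM (1.19, SE 0.18, adjusted p = 0.00633). Irx3 was called with limma voom and with DESeq2 as well, and the call of Wdfy1 was lost with limma voom (adjusted p = 0.076). In female cells alone both calls were lost (adjusted p = 0.0551 for Irx3 and 0.923 for Wdfy1, edgeR), and that of Wdfy1 also in capillary cells (0.177) and in cells thinned to 1500 UMIs (0.0608). Ccdc184, a coiled-coil protein gene below 10 CPM that was singled out after its values were seen, had the smallest adjusted p of the 30 calls: it was 9.16 and 8.69 against 3.04 and 3.28 CPM (1.48, SE 0.18, adjusted p = 0.00253, edgeR). It was not more abundant in any of the 4 other classes tested. Its call was made with limma voom, in capillary cells and in thinned cells too, and was lost in female cells (adjusted p = 0.0539). In the medium bin Wdfy1 was 19.3 and 12.85 CPM with ATV-TfR against 26.9 and 41.8 with ATV-CD98hc. Irx3 was 21.55 and 18.45 against 11.7 and 13.3 there, and Ccdc184 26.6 and 27.5 against 7.79 and 9.675. In the low bin each gene kept that order without overlap. In the negative bin Irx3 kept it, Wdfy1 overlapped and Ccdc184 was lower with ATV-TfR. No test was made within these bins, and no change of these differences between bins was called (edgeR).

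Most of the other genes higher with ATV-TfR were more abundant in astrocyte-like than in endothelial-like cells. Of the 23 higher genes, 17 were at least 5-fold more abundant in astrocyte-like cells of the same libraries, as were 15.2% of all genes tested. DESeq2 called 16 of these 17, and limma voom with the pool as a random block called 1 (Slc1a2). Slc1a2, the glutamate carrier of astrocytes, was 23.8 and 26.2 CPM in endothelial-like cells with ATV-TfR and 7.16 and 7.58 with ATV-CD98hc, against a mean of 7188 CPM in astrocyte-like cells. Clu was 12.7 and 10.9 against 3.497 and 5.80 CPM, and Lsamp 13.8 and 12.3 against 4.64 and 6.34 CPM. Of the 12 astrocyte markers, 3 were called (Slc1a2, Ntsr2 and Clu), 10 were higher with ATV-TfR without overlap, and the median difference was 0.98. Over all genes, 14.4% were higher without overlap. Astrocyte-like cells made up 3.35% and 2.48% of the ATV-TfR and 2.10% and 1.75% of the ATV-CD98hc libraries, and the part of their RNA in these differences was not tested. The neuron and oligodendrocyte markers, with 9 and 12 genes tested and no call with edgeR, had medians of 0.84 and 1.04, with 5 genes each at an unadjusted p below 0.05; DESeq2 and limma voom each called 1 neuron marker. Macrophage markers lay on the other side: 5 of 12 microglia markers and 4 of 5 tested border macrophage markers were lower with ATV-TfR without overlap, against 11.5% of all genes, with medians of -0.49 and -0.39, no call with edgeR, DESeq2 or limma voom and 2 genes each at an unadjusted p below 0.05.

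S100a8, a protein of neutrophils, was the called gene with the largest difference in that direction (4.17, adjusted p = 0.0359, edgeR). The call was lost with limma voom and the pool as a random block (adjusted p = 0.227). It rested on 132 and 36 UMIs with ATV-TfR and on 1 and 5 UMIs with ATV-CD98hc. Neutrophil-like cells numbered 12 and 2 in the ATV-TfR and 0 and 1 in the ATV-CD98hc libraries, and their part was not tested. Vegfa, the endothelial growth factor that astrocytes express at a mean of 315 CPM, was 1.54 and 1.00 against 0.413 and 0.378 CPM in endothelial-like cells (1.65, adjusted p = 0.0425, edgeR), and its call was lost with limma voom too (adjusted p = 0.345).

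Of the lower genes, Plvap, Esm1 and Penk came from very few cells, and Plvap and Esm1 mark fenestrated vessels. Plvap, the diaphragm protein of fenestrae and caveolae, gave 5 and 1 UMIs with ATV-TfR and 38 and 48 with ATV-CD98hc. The ratio of ATV-CD98hc to ATV-TfR was 20.6 (95% exact interval 9.07 to 57.6, counting error only). Esm1, an endothelial secreted proteoglycan, gave 1 and 1 against 18 and 26 UMIs, and Penk, the proenkephalin gene, 2 and 2 against 22 and 96. The ATV-CD98hc libraries held 7 cells of the fenestrated zone, and these carried 63 of the 86 Plvap, 39 of the 44 Esm1 and 108 of the 118 Penk UMIs. Plvap and Esm1 are among the markers that placed cells in that zone, so their large part there was set in advance. Penk is not among those markers. A single cell held 88 of the Penk UMIs. The calls of these 3 genes were lost with limma voom and the pool as a random block (adjusted p = 0.227, 0.20 and 0.195 for Plvap, Esm1 and Penk). Bdkrb2, the bradykinin receptor, was different in this respect: its 30 and 24 UMIs with ATV-CD98hc, against 1 and 2 with ATV-TfR, all lay outside those 7 cells and were spread over 26 and 24 cells. G530011O06Rik, a gene known by its clone name, gave 29 and 11 UMIs with ATV-TfR and 111 and 245 with ATV-CD98hc, in 108 and 235 cells there, and 355 of those 356 UMIs lay outside the fenestrated cells (-3.65, adjusted p = 0.00422, edgeR). Both genes were called with limma voom as well, and both calls were lost without either ATV-TfR pool (adjusted p = 0.738 and 0.236 for Bdkrb2, 0.361 and 0.275 for G530011O06Rik, edgeR). The limma voom fit used the same filter on low counts, so it is no separate check of that filter. G530011O06Rik was 5.10 and 7.14 CPM in ATV-CD98hc low and 2.17 and 3.895 in medium cells. With ATV-TfR it was 0 and 1.34, and 0.449 and 0.605. It thus passed the filter mainly through the group where it is high. Among the ATV libraries Bdkrb2 was highest in ATV-CD98hc negative, 3.20 and 5.735 CPM in 83 and 58 cells. Border macrophage-like cells held G530011O06Rik at a mean of 42.4 CPM.

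Genes of the barrier itself did not differ past the threshold. Cldn5, the main claudin of brain tight junctions, was 7719 and 7712 CPM with ATV-TfR and 7309 and 8877 with ATV-CD98hc. Cdh5, the cadherin of endothelial adherens junctions, was 500 and 514 against 552 and 523 CPM. The efflux pumps Abcb1a and Abcg2 were 1109 and 1195 against 1454 and 1096 CPM, and 1236 and 1202 against 1168 and 1100 CPM. Of 14 tested junction genes and 22 barrier carriers and pumps edgeR called 0, with 0 and 1 genes at an unadjusted p below 0.05 and medians of -0.09 and -0.15. The lists of clathrin, sorting and recycling (38 genes) and of lysosomal proteins (28 genes) had no call either, with 0 and 1 genes at an unadjusted p below 0.05.

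Most heat shock genes had higher values with ATV-TfR in both pools, without any call. Hspa1a, an inducible heat shock protein, was 28.9 and 15.5 against 11.6 and 8.24 CPM (1.14, adjusted p = 0.206, edgeR), and Hspb1 was 1906 and 2007 against 1350 and 1482 CPM (0.45, adjusted p = 0.806). Of 12 heat shock genes, 10 were higher without overlap, beside 14.4% of all genes tested, with a median of 0.33, and 4 had an unadjusted p below 0.05. Of 16 immediate early genes 9 were higher without overlap, with a median of 0.31 and 4 at an unadjusted p below 0.05. Klf4 was 502 and 469 against 383 and 350 CPM, and Jun 544 and 466 against 338 and 406 CPM. Actinomycin D and anisomycin, which block transcription and translation, were present during dissociation.

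Among signalling genes, 8 of 16 tested genes of VEGF and angiopoietin signalling were lower with ATV-TfR without overlap, beside 11.5% of all genes tested. The list had 2 calls, Esm1 lower and Vegfa higher, which are described above, and a median of -0.26. Both calls were lost with limma voom and the pool as a random block. Kdr, the main VEGF receptor, was 604 and 550 against 735 and 625.5 CPM, and Apln, a peptide of angiogenic endothelium, 2.04 and 1.35 against 3.57 and 3.13 CPM. Neither was called (adjusted p = 1.0 and 0.755). Apcdd1, a Wnt target of the barrier, was 417 and 433 against 597 and 493 CPM (-0.37, adjusted p = 1.0), and none of the 23 Wnt barrier genes was called with edgeR, 1 at an unadjusted p below 0.05.

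The vessel zones of the brightest endothelial cells were almost the same for both antibodies. Cells were placed in zones by sub-clusters and 42 zone markers, without use of the antibody. Arterial cells made up 11.4% and 11.5% of endothelial-like cells with ATV-TfR and 10.7% and 11.3% with ATV-CD98hc. Capillary cells made up 73.3% and 73.2% against 73.4% and 73.8%, and venous cells 14.1% and 14.3% against 15.5% and 14.2%. The log2 differences in cell number were 0.05 for arterial (95% interval -0.07 to 0.17), -0.01 for capillary (-0.09 to 0.08) and -0.06 for venous cells (-0.17 to 0.06), none of them called. Of 4 zones tested, 1 was called (25%), the fenestrated zone. It held 0 and 0 cells with ATV-TfR, of 16613 and 15364, and 4 and 3 cells with ATV-CD98hc, which is at least 3.62-fold lower with ATV-TfR against a floor of 3 cells over both pools (adjusted p = 0.0105, edgeR). The call was lost without either ATV-CD98hc pool. It also ended when the called zone genes were left out of the naming, and the difference turned to 0.03. With doublets kept the call ended too and the difference turned to 0.41, but each doublet was placed by its highest marker score. When each cell was given the zone of its highest marker score instead, the fenestrated number was higher with ATV-TfR (0.37, adjusted p = 0.000358, edgeR), although by that score 56.6% of capillary cells kept their zone. In the clustering of all cells, the cluster led by Plvap, Igfbp3, Kdr and Esm1 held 0 and 0 cells with ATV-TfR and 8 and 5 with ATV-CD98hc. The direction thus differed between ways of naming. Naming all cells by highest score also moved many cells between zones, so it cannot decide the direction for these rare cells.

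**Figure D4:**
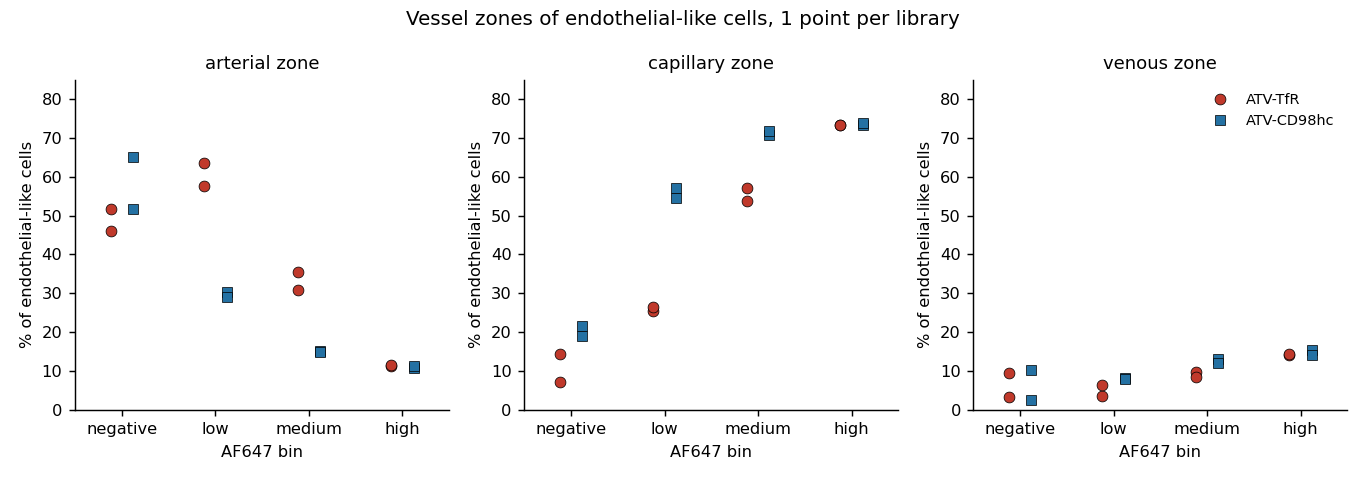
Share of endothelial-like cells (y, percent) in the arterial, capillary and venous zones by AF647 bin (x), 1 point per library. Circles are ATV-TfR and squares ATV-CD98hc. In the high bin the points of both antibodies lie together, at 10.7% to 11.5% arterial cells, and in the medium bin the arterial and capillary points are apart.

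In the medium bins the zone shares of the antibodies were farther apart, a difference between bins that was not tested. Arterial cells held 30.7% and 35.5% of the medium endothelial-like cells with ATV-TfR and 15.1% and 14.95% with ATV-CD98hc, and capillary cells 57.2% and 53.8% against 70.9% and 71.8%. The gene difference between the antibodies was compared between bins in the same fit. From the medium to the high bin it changed in 81 of 14153 genes (0.572%), all of them toward lower values with ATV-TfR, and 843 had an unadjusted p below 0.05 (5.96%). From the negative to the high bin it changed in 31 genes (0.219%), 19 toward higher (0.134%) and 12 toward lower values (0.0848%), with 1003 at an unadjusted p below 0.05 (7.09%). Without either ATV-TfR pool both counts were 0 with edgeR, with 623 and 369 genes at an unadjusted p below 0.05 for the medium and 652 and 718 for the negative bin. Without either ATV-CD98hc pool the medium bin gave 330 and 331 calls, of which 60 and 79 went toward higher values, and the negative bin 8 and 134. In each of the 81 genes of the medium bin, both ATV-TfR medium libraries were the highest of the 8 medium and high ATV libraries. Of the 81, 57 were at least 5-fold more abundant in astrocyte-like cells of the high bin than in high-bin endothelial-like cells on average. The same held for 15.2% of all genes tested. Against the highest of the 8 endothelial libraries this held for 49 of the 81, a measure not computed for all genes. The arterial genes Mgp, Gkn3 and Bmx were among the 81, but astrocyte-like cells of the high bin held them at means of 2.04, 0.79 and 0.833 CPM. Mgp was 166 and 196 CPM in ATV-TfR medium, 31.1 and 34.0 in ATV-CD98hc medium, 21.6 and 17.9 in ATV-TfR high and 11.8 and 14.1 in ATV-CD98hc high.

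The minor classes of the high bins were then compared by their numbers. Of 17 classes whose cell numbers were tested with edgeR, 4 were called (23.5%), all less frequent with ATV-TfR, and 7 had an unadjusted p below 0.05 (41.2%). A share of the sorted cells of 1 bin can change because 1 class or another entered it, so each share depends on all classes. The control IgG high libraries held 519 and 720 kept cells. Of these, border macrophage-like cells made up 77.8% and 71.1%, fibroblast-like 10.8% and 12.1% and choroid plexus epithelial-like 5.40% and 10.6%. Microglia-like cells numbered 0 and 0 there. What part of these classes was bright in the ATV libraries without the receptor of the ATV was not tested.

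Fibroblast-like cells, which line the meninges and larger vessels, showed the largest called difference. They numbered 9 and 8 with ATV-TfR (0.049% and 0.048% of kept cells) and 80 and 86 with ATV-CD98hc (0.811% and 0.679%). The groups were far apart, with a log2 difference of -3.92 (SE 0.34, adjusted p = 1.55e-06). The difference was called with any 1 of the 4 pools left out, from -4.04 to -3.79, and in male and in female cells alone.

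Microglia-like cells, the resident macrophages of the brain tissue, numbered 14 and 11 against 57 and 27, or 0.076% and 0.066% against 0.578% and 0.213% (-2.45, SE 0.52, adjusted p = 0.00431, edgeR). The difference was -1.57 without ATV-CD98hc pool 1 (adjusted p = 0.0336), and the call was lost in male cells (-1.35, adjusted p = 0.0838). Border macrophage-like cells, the macrophages of the meninges, vessels and choroid plexus, numbered 115 and 95 against 166 and 124, or 0.621% and 0.571% against 1.68% and 0.979% (-1.16, SE 0.34, adjusted p = 0.0238). Choroid plexus epithelial-like cells, which make cerebrospinal fluid, numbered 72 and 61 against 121 and 111, or 0.389% and 0.366% against 1.23% and 0.876% (-1.47, SE 0.44, adjusted p = 0.0238). In each of these 3 classes both ATV-TfR shares were below both ATV-CD98hc shares. All 3 calls were lost without either ATV-TfR pool and in male cells, and that of border macrophages also without ATV-CD98hc pool 1 (-0.72). Ependymal-like cells were found with ATV-CD98hc, 5 and 1 cells, against 0 and 0 with ATV-TfR, and were not called (adjusted p = 0.0985, edgeR; 0.00524 without ATV-CD98hc pool 2).

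Astrocyte- and pericyte-like cells lay in the other direction. Astrocyte-like cells numbered 621 and 413 with ATV-TfR and 207 and 222 with ATV-CD98hc, without overlap in their shares (0.60, SE 0.30, adjusted p = 0.146, edgeR). Pericyte-like cells, the mural cells of capillaries, numbered 235 and 154 against 27 and 101, or 1.27% and 0.925% against 0.274% and 0.797% (1.02, SE 0.46, adjusted p = 0.114). Neither was called. The pericyte-like difference was 0.46 without ATV-CD98hc pool 1 (adjusted p = 0.337), the pool with 27 cells, and 2.00 and called without pool 2 (adjusted p = 0.00112, edgeR). A pair of clusters with both endothelial and pericyte markers was left unnamed and outside this class; they held 354 and 206 cells with ATV-TfR against 142 and 136 with ATV-CD98hc, and 237 and 174 against 1 and 121.

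**Figure D5:**
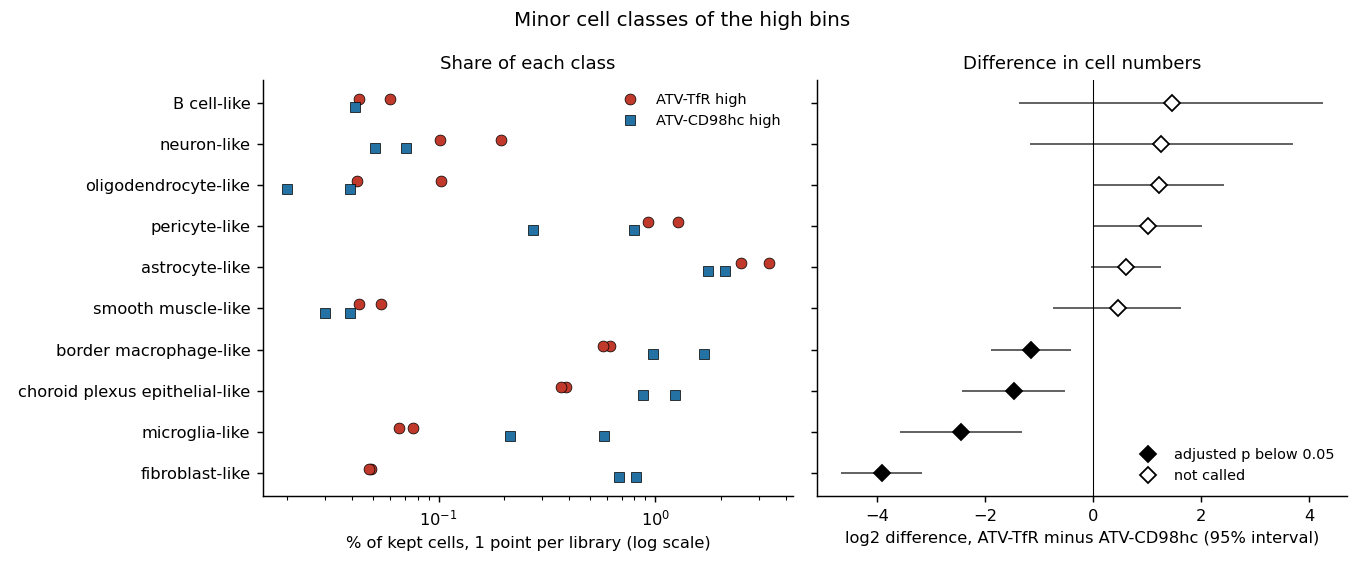
Left, share of kept cells (x, percent on a log scale) of each minor class with at least 20 cells over the 4 high libraries, 1 point per library; a library with 0 cells has no point. Right, log2 difference in cell number, ATV-TfR minus ATV-CD98hc, with its 95% interval; filled diamonds are called. The 4 called classes, fibroblast-, microglia-, choroid plexus epithelial- and border macrophage-like, lie below 0.

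Astrocyte-like cells held the most calls of the 5 classes tested for genes. In these cells 2083 of 14991 genes tested were called (13.9%), 1173 higher (7.82%) and 910 lower (6.07%) with ATV-TfR. Emx2 and Lhx2, homeobox factors of the developing cortex, were 49.9 and 49.6 against 7.09 and 6.42 CPM, and 141 and 171 against 24.3 and 26.9 CPM. Nkx2-1, a factor of the hypothalamus and basal forebrain, was 1.46 and 3.37 against 87.2 and 52.6 CPM, and Zic1 10.2 and 8.41 against 99.3 and 61.6 CPM. Lhx2, Nkx2-1 and Zic1 fall outside the rule for named genes and were singled out after their values were seen. No pair of groups overlapped in these 4 genes, and each was called (adjusted p at most 2.61e-06, edgeR).

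By the rule, the genes named in astrocyte-like cells were Emx2, Igfbp2 and Chrdl1 (higher) and Hpse2, Wfikkn2 and Enkur (lower). Hpse2, a heparanase family protein, was 0.292 and 0.421 CPM with ATV-TfR and 256 and 172 with ATV-CD98hc (-9.05, SE 0.66, adjusted p = 2.28e-07, edgeR). Igfbp2, a binding protein of insulin-like growth factors, was 311 and 274 against 32.4 and 52.6 CPM (3.04, SE 0.24). Gfap, the filament of reactive and fibrous astrocytes, was 269 and 280 against 107 and 84.7 CPM (1.72, adjusted p = 4.22e-05), and Slc1a2 9900 and 10390 against 4303 and 4154 CPM (1.48, adjusted p = 3.16e-08).

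The make-up of the astrocyte-like class moved with these genes. Its cluster 2, led by Cspg5, Fjx1 and Aldoc, held 299 and 197 cells with ATV-TfR and 13 and 21 with ATV-CD98hc. Cluster 6, led by Crym, lay the other way, with 4 and 5 against 27 and 15 cells. Cluster 3 held 46 and 37 against 4 and 14 cells, cluster 4 held 8 and 11 against 0 and 0, and cluster 7 held 88 and 43 against 17 and 19. Cluster 8, led by Agt, Itih3 and Slc6a11, held 108 and 76 against 94 and 82 cells, and cluster 10, led by Kcnd2, 68 and 44 against 52 and 71. The class as a whole held 621 and 413 against 207 and 222 cells. Clusters 8 and 10 were thus a larger part of it with ATV-CD98hc, as was cluster 6. Within cluster 8 alone 48 genes were called, 32 of them among the 2083 of the class as a whole, and within cluster 10 alone 396, 262 of them among the 2083. In cluster 8 the differences of Emx2, Lhx2, Hopx and Zic1 turned their direction and none was called, while Slc3a2 stayed called in both clusters (1.42 and 2.43). These clusters were made from the same genes, so the counts within them are descriptions of where the class differed.

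In border macrophage-like cells 186 of 7310 genes tested were called (2.54%), 163 higher (2.23%) and 23 lower (0.315%) with ATV-TfR. Among the lower genes, singled out after their values were seen, were genes of MHC class II. H2-Ab1, an MHC class II chain, was 1212 and 2733 CPM with ATV-TfR and 4607 and 4473 with ATV-CD98hc (-1.18, SE 0.28, adjusted p = 0.0175, edgeR). H2-Eb1 and H2-Aa were lower too (-1.14 and -1.0, adjusted p = 0.0265 and 0.0299), and so was Ciita, the transactivator of the MHC class II genes, at 36.7 and 55.0 against 159 and 150 CPM (-1.75, adjusted p = 0.00663). Cd74, the invariant chain, was 3238 and 7243 against 9961 and 11600 CPM and missed the threshold (adjusted p = 0.0518). ATV-TfR pool 1 had the lowest value of the 4 in each of these 5 genes, and without it none of them was called (H2-Ab1 -0.69, H2-Eb1 -0.65, H2-Aa -0.63 and Ciita -1.45). H2-Ab1, H2-Eb1 and H2-Aa also missed the threshold without ATV-CD98hc pool 1 (adjusted p = 0.0532, 0.0545 and 0.0933), and H2-Eb1 and H2-Aa without pool 2 (0.0639 and 0.0745, edgeR).

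The rule named Alcam, Rgs1 and Havcr2 as lower and Clec10a as higher in border macrophage-like cells. Rgs1, a regulator of G protein signalling in leukocytes, was 30.6 and 14.7 against 164 and 133 CPM (-2.65, SE 0.41, adjusted p = 0.00137, edgeR), and it was called with any 1 pool left out. Clec10a, a lectin of macrophages and dendritic cells, was 128.5 and 73.3 against 13.8 and 30.7 CPM (2.28, SE 0.45, adjusted p = 0.00428, edgeR). The calls of Clec10a, Alcam and Havcr2 were lost without ATV-TfR pool 1 (adjusted p = 0.259, 0.0848 and 0.373), and that of Clec10a also without ATV-CD98hc pool 1 (1.69, adjusted p = 0.0949). The scavenger receptor Cd163 was 220 and 128 against 205 and 235 CPM and overlapped. The Fc gamma receptor gene Fcgr3 was 205 and 326 against 316 and 399 CPM, with overlap, and Fcgr4 was 30.6 and 40.3 against 62.2 and 95.5 CPM, without a call (adjusted p = 0.361).

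Of the 163 genes higher with ATV-TfR in border macrophage-like cells, 162 had a lower level there than in endothelial-like cells of the same libraries. Slc7a5 was one of them, at 435 and 308 against 127 and 232 CPM (1.09, adjusted p = 0.032, edgeR). The part of endothelial RNA in these genes was not tested. Without ATV-TfR pool 1, 2 genes were called in the class, Cxcl12 and Rgs1, and with DESeq2 49 were.

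In choroid plexus epithelial-like cells 1 of 11630 genes tested was called with edgeR (0.0086%), which was Slc3a2, and 82 other genes with DESeq2, while 1239 had an unadjusted p below 0.05 with edgeR (10.7%). Ttr, the transthyretin that these cells secrete, was 233500 and 233600 CPM with ATV-TfR and 198700 and 227500 with ATV-CD98hc (0.30, adjusted p = 0.554). In pericyte-like cells 1 of 7371 was called (0.0136%), Slc1a2, at 47.4 and 107 CPM with ATV-TfR and 0 and 3.78 CPM with ATV-CD98hc, from 29 and 48 against 0 and 1 UMIs. The call of Slc1a2 was lost without ATV-TfR pool 2 (adjusted p = 0.398) and without either ATV-CD98hc pool (0.117 and 0.488, edgeR), and the 1 and 2 genes called in the last 2 fits were others. That class held 27 cells in ATV-CD98hc pool 1, and DESeq2 called 0 genes in it, with 120 at an unadjusted p below 0.05 there and 252 with edgeR (3.42%).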

How the data were processed

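The deposited values are UMI counts per gene and cell. The authors made them with Cell Ranger 7.1.0 on mouse build mm10 and used Seurat, per the submitters' processing notes; annotation release and library chemistry: not given in the sources used here. Of 265025 deposited barcodes, 249715 passed the filter of 500 genes, 800 UMIs and 10% mitochondrial UMIs, and 15691 were removed as doublets by their Scrublet score. The automatic threshold was used in 15 libraries; in the other 8, all high ATV libraries included, cells above the 94th percentile of the score were removed, which took 5.21% to 5.49% of a high library since cells tied at the threshold were kept. Cells were clustered with scanpy 1.11.5 and clusters were named from marker lists, so the names are rebuilt here. Counts were summed per class and library, with at least 20 cells, and tested with edgeR 4.0.16 (quasi-likelihood, TMM factors, filterByExpr, Benjamini-Hochberg) over 16 ATV libraries in 8 groups. Printed CPM are raw UMIs scaled to the same total for each class and library. The 4 bins of a pool share animals and were taken as independent; limma voom with the pool as a random block is an alternative, as are DESeq2, other filters and factors, and leaving out each pool. Pools are separate animals, with 2 per group. Differences are log2, ATV-TfR minus ATV-CD98hc, as log2 fold changes computed here. Intervals on counts cover counting error only. The rule for named genes took called genes of at least 20 CPM without overlap between groups that are no markers of other cell types, by size of the difference, plus Tfrc, Slc3a2, Slc7a5, Fcgrt, Slc40a1 and members of the pathway and zone lists; in minor classes it took 3 genes in each direction with a level at least that in endothelial-like cells. Other genes named (such as Penk, Bdkrb2, S100a8, Lsamp, Gfap and the MHC class II genes), and the fits of single astrocyte-like clusters, were chosen after seeing the data. The members and lists were chosen with earlier results of these data known. On data simulated for the endothelial comparison (13810 genes), 92.5% of genes changed 2-fold and 19.4% of those changed 1.5-fold were called, with 14 false calls among the unchanged genes. The changed genes were drawn from those of at least 20 CPM, and libraries were simulated as independent. Of the real calls, 1 of the 23 higher and 2 of the 7 lower genes had at least 20 CPM. The simulated rates therefore do not cover genes of lower level or bins that share animals.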

Additional observations from a re-analysis of the deposited data

Results flagged for a closer look

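The difference between the antibodies changed from the medium to the high bin in 81 endothelial genes, by a test of the difference itself (edgeR, adjusted p below 0.05). All 81 were highest in both ATV-TfR medium libraries among the 8 medium and high ATV libraries, and the median change was -1.79 on the log2 scale. From the negative to the high bin it changed in 31 genes, 19 toward higher and 12 toward lower values with ATV-TfR. Both counts were 0 without either ATV-TfR pool (edgeR, with 369 to 718 genes at an unadjusted p below 0.05). Plvap, of fenestrated vessels, was 1260 and 977 CPM in ATV-TfR negative and 201 and 447 CPM in ATV-CD98hc negative cells (-6.10, adjusted p = 0.00231). Fenestrated cells made up 36.5% and 31.8% of the ATV-TfR negative and 9.64% and 13.8% of the ATV-CD98hc negative endothelial-like cells, which number 58 to 126 per library, and their part in the difference was not tested. Of the 31, 18 were at least 5-fold more abundant in high-bin astrocyte-like cells than in the highest of the 8 negative and high endothelial libraries. That measure was not computed for all genes, and the part of astrocyte RNA was not tested.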

How the results depend on the processing

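The 30 endothelial calls became 0 to 5138 with 1 pool left out, 0 with the 4 high libraries alone (519 at an unadjusted p below 0.05; DESeq2 over 16 libraries 72), 9 with limma voom, 146 without a filter on low counts, 3 in female cells, 6 in capillary cells, 10 in cells thinned to 1500 UMIs and 105 with 1 sum per animal. The 81 high against medium calls ranged from 0 to 331 and the 31 high against negative calls from 0 to 134 with 1 pool left out. The zone call was lost without either ATV-CD98hc pool, without called zone genes (0) and with doublets kept and placed by score (0). The fenestrated difference turned to 0.03 without those genes, to 0.41 with doublets kept and to 0.37 by score for all cells. Without called zone genes arterial turned to -0.07 and capillary to 0.02. The 4 class calls ranged from 1 to 6 with 1 pool left out and were 1 in male cells. The 2083 astrocyte-like calls ranged from 976 to 1902 with 1 pool left out, and were 48 in cluster 8 and 396 in cluster 10. The 186 border macrophage-like calls ranged from 2 to 184, with 49 by DESeq2; the single choroid plexus call from 0 to 31, with 82 by DESeq2; the single pericyte-like call from 0 to 2, with 0 by DESeq2 and Slc1a2 called in 1 of the 4 such fits. The causes were not tested.

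With 1 pool left out, the uncalled differences that changed sign ranged from -0.33 to 0.04 for Abcb1a, -0.24 to 0.08 for Cldn5, -0.02 to 0.39 for Fth1, -0.06 to 0.50 for Ftl1, -0.36 to 0.02 for Slco1a4, -0.30 to 0.09 for choroid plexus Tfrc (0.07 without ATV-TfR pool 2), -0.22 to 3.38 for T or NK cell-like and -0.03 to 0.01 for endothelial-like cell number; the outer values of the 5 genes came without one or the other ATV-CD98hc pool. In male cells T or NK cell-like number was -2.54 and smooth muscle-like -0.06, and in female cells neutrophil-like was -2.64. In cluster 8 alone Emx2 was -6.81, Lhx2 -0.11, Hopx -0.83, Zic1 1.86 and astrocyte Tfrc -0.47.

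Pool numbers name separate animals, so no animal pairs the groups. Whether same-numbered pools were handled together was not tested. The correlation of same-numbered deviations was 0.243, from 2 pairs, too few to decide it. With the replicate number as a block the calls were 93 for endothelial-like cells, 264 for high against medium, 51 for high against negative and 2 for pericyte-like cells. Classes of under 20 cells per library limit what could be seen.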
